A study of Xenopus laevis with 3 samples.

Results

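The subunits of RNA polymerases I, II and III (pol I, pol II and pol III) and of TFIIIC, an initiation factor of pol III, were followed over the cells of the juvenile *Xenopus laevis* ovary. The 46 members are all features whose name begins with polr1, polr2 or polr3 and a letter, or with gtf3c and a digit, of 44454 features with a name. They are 5 genes of pol I alone, 4 genes of subunits that pol I and pol III share (*polr1c* and 3 copies of *polr1d*), 10 genes of subunits common to all 3 enzymes, 11 genes of pol II alone, 10 genes of pol III alone and 6 genes of TFIIIC. *X. laevis* is an allotetraploid frog, and the endings L and S mark the copy of a gene on each of its subgenomes. Both copies were present for 10 genes, and 26 members had 1 copy. Reads that fit both copies, or both *polr3g.L* and its paralog *polr3gl.L*, may have been split or dropped during counting, so the balance within such pairs is uncertain. The feature names carry no coordinates.

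Pol I makes the large ribosomal RNA precursor, pol II makes mRNA, and pol III makes 5S ribosomal RNA, tRNAs and other small RNAs. Each enzyme has its own pair of largest subunits, which form the active site, and a set of smaller subunits, some of which occur in more than one enzyme. TFIIIC binds the internal promoters of tRNA genes and also takes part in 5S transcription, where TFIIIA, the product of *gtf3a*, binds the gene first. Amphibian oocytes amplify their ribosomal DNA in meiotic prophase, store 5S RNA early in growth and later transcribe from lampbrush chromosomes.

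Individual ovaries of 3 wild-type juveniles of Nieuwkoop-Faber stages 62 to 66, with no treatment, were dissociated, and 1 droplet-based 3′ single-cell library was made from each. Barcodes were kept if they held between 100 and 8000 genes and no more than 1.5% mitochondrial UMIs (unique molecular identifiers, each a counted transcript), which left 17147 cells, 8193 of them germ cells and 8954 somatic cells. The germ cell groups are GSC-like (germline stem cell-like, 162 cells), G2/M-like (254), pre-meiotic S-like (1002), L-Z-like (leptotene and zygotene, 1370), pachytene-like clusters 2 (960) and 3 (936), early diplotene-like (857) and stage 1 follicle-like (564), with 1 unnamed cluster and 3 clusters called low-UMI. Clusters 5 and 11 of these were chosen by oocyte markers as well as UMI count, as given with their results. The somatic types are stromal-like, proliferating stromal-like, follicle-lineage-like, epithelial-like, endothelial-like, leukocyte-like and red blood-like cells.

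The ovary was the replicate throughout (n = 3). The libraries held 34060121 to 54585110 UMIs. They differed in makeup, with 1045 germ cells in ovary 1, 4181 in ovary 2 and 2967 in ovary 3, and barcodes with over 8000 genes held 55.4% of the UMIs of ovary 1 against 6.93% in ovary 2 and 14.4% in ovary 3. Pairs of libraries shared 6 to 16 barcodes. Of the marker lists, 10 of 10 GSC markers were highest in GSC-like cells, 12 of 16 G2/M markers in G2/M-like cells, 6 of 7 leptotene and zygotene markers in L-Z-like cells and 6 of 11 follicle markers in stage 1 follicle-like cells. Only 2 of 12 pre-meiotic S markers were highest in pre-meiotic S-like cells and 1 of 6 early diplotene markers in early diplotene-like cells. Of 7 pachytene markers 6 were highest in L-Z-like cells and none in the pachytene-like clusters, so those names are weak. The members themselves were left out of the genes used for clustering.

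A level is given in CPM, the UMI count of a gene in a cell group scaled to a total of 1000000 UMIs in that group and ovary, as mean ± SD over ovaries, with the ovaries in the order 1, 2 and 3. Fold changes are log2 values from edgeR's quasi-likelihood test on UMIs summed per ovary and group, with Benjamini-Hochberg adjustment over all genes tested and a threshold of 0.05, and they are scaled to the median gene (trimmed mean of M values, TMM). A gene may therefore differ in sign between its level and its fold change where the median gene itself moved against the total. Most counts of calls under other settings, such as a left-out ovary or the ovary as a block, have no share of all genes beside them. Such counts do not show whether the members changed more than other genes did.

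The 46 members together made up a small and variable share of the germ cell transcripts. Their summed level was 3294 ± 103.1 CPM in GSC-like cells, 2805 ± 213 in pre-meiotic S-like cells, 2314 ± 132 in L-Z-like cells, 3948 ± 321 in early diplotene-like cells and 3379 ± 374 in stage 1 follicle-like cells. L-Z-like cells were thus the low point in each ovary among these 5 stages, and early diplotene-like cells the high point. The classes did not share 1 profile. Pol I subunits stood at 767 ± 59.3 in GSC-like cells, 472 ± 37.3 in pre-meiotic S-like cells, 316 ± 60.2 in L-Z-like cells and 417 ± 60.2 in early diplotene-like cells. Pol II subunits stood at 1013 ± 93.8, 935 ± 50.2, 732 ± 25.3 and 1410.2 ± 205 in the same 4 groups. Pol III subunits were at 209.9 ± 37.7, 221 ± 24.3, 219.5 ± 8.47 and 316 ± 44.9, and TFIIIC at 203 ± 34.8, 205 ± 13.8, 224 ± 15.9 and 147 ± 28.8. Among these 4 groups, by mean level, pol I was thus highest in GSC-like cells, and pol II and pol III were highest in early diplotene-like cells. TFIIIC was lowest in early diplotene-like cells, where ovary 2, at 178, lay above its GSC-like value of 167. The other germ cell groups are outside this ranking. The pol III maximum rested on *polr3g.L*. Without it the other 9 pol III genes summed to 206 ± 39.5 in GSC-like, 216 ± 26.1 in pre-meiotic S-like, 213 ± 8.23 in L-Z-like, 300.1 ± 8.66 in pachytene-like cluster 3 and 206 ± 21.05 in early diplotene-like cells. The pachytene-like clusters 2 and 3 lay above L-Z-like cells for pol I, at 592 ± 22.6 and 545 ± 14.3, and for the pair shared by pol I and pol III, at 375 ± 71.8 and 351 ± 67.2 against 192 ± 28.4. Of the 46 members, 13 had their highest mean of the 8 named stages in early diplotene-like cells and 9 in GSC-like cells, while 13 had their lowest mean in L-Z-like cells. These ranks are by CPM, and the shares of all genes with the same ranks are not given. They therefore do not show whether the members differ from other genes.

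**Figure D1:**
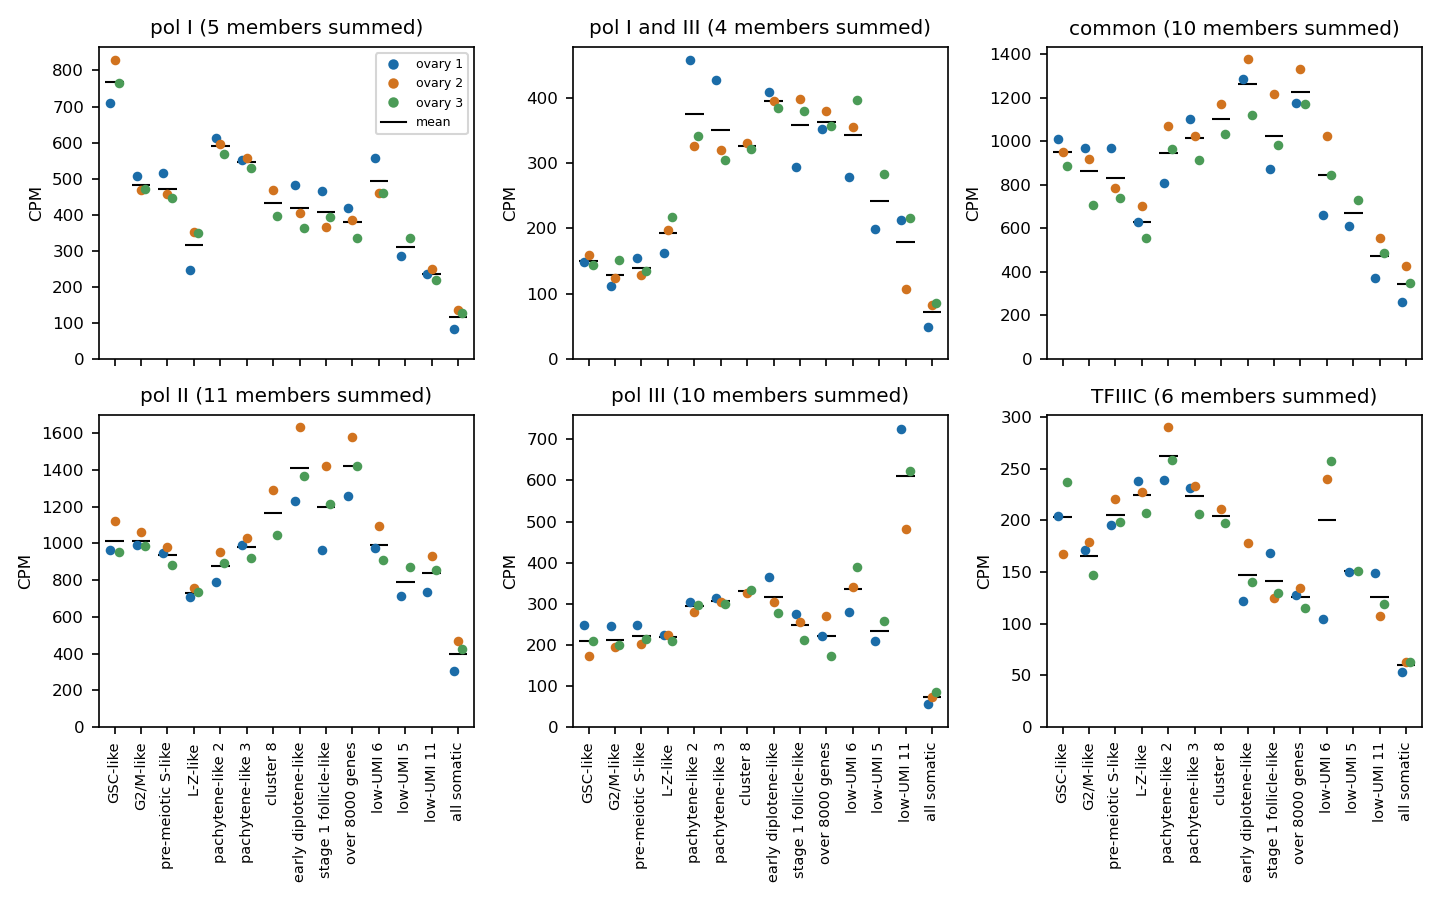
Summed CPM (UMI counts scaled to the group's total) of each class of members (vertical axes) over the germ cell groups, the barcodes with over 8000 genes and all somatic cells (horizontal axes); points are the ovaries with at least 10 cells of the group and black lines their mean. Pol I peaks in GSC-like cells at 767 CPM, common subunits and pol II are low in L-Z-like cells and high in early diplotene-like cells, and pol III is highest in low-UMI cluster 11, mostly through *polr3a.L*.

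In 1 test over all named germ cell stages and low-UMI clusters, 43 of 44 members tested differed among groups, against 89.2% of all genes tested. The exception was *gtf3c2.L*, in the B-box-binding arm of TFIIIC (edgeR's quasi-likelihood test, adjusted p = 0.185). The heat map of the members shows that neighbours within a class could run in opposite directions, so the genes are taken up by comparison.

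**Figure D2:**
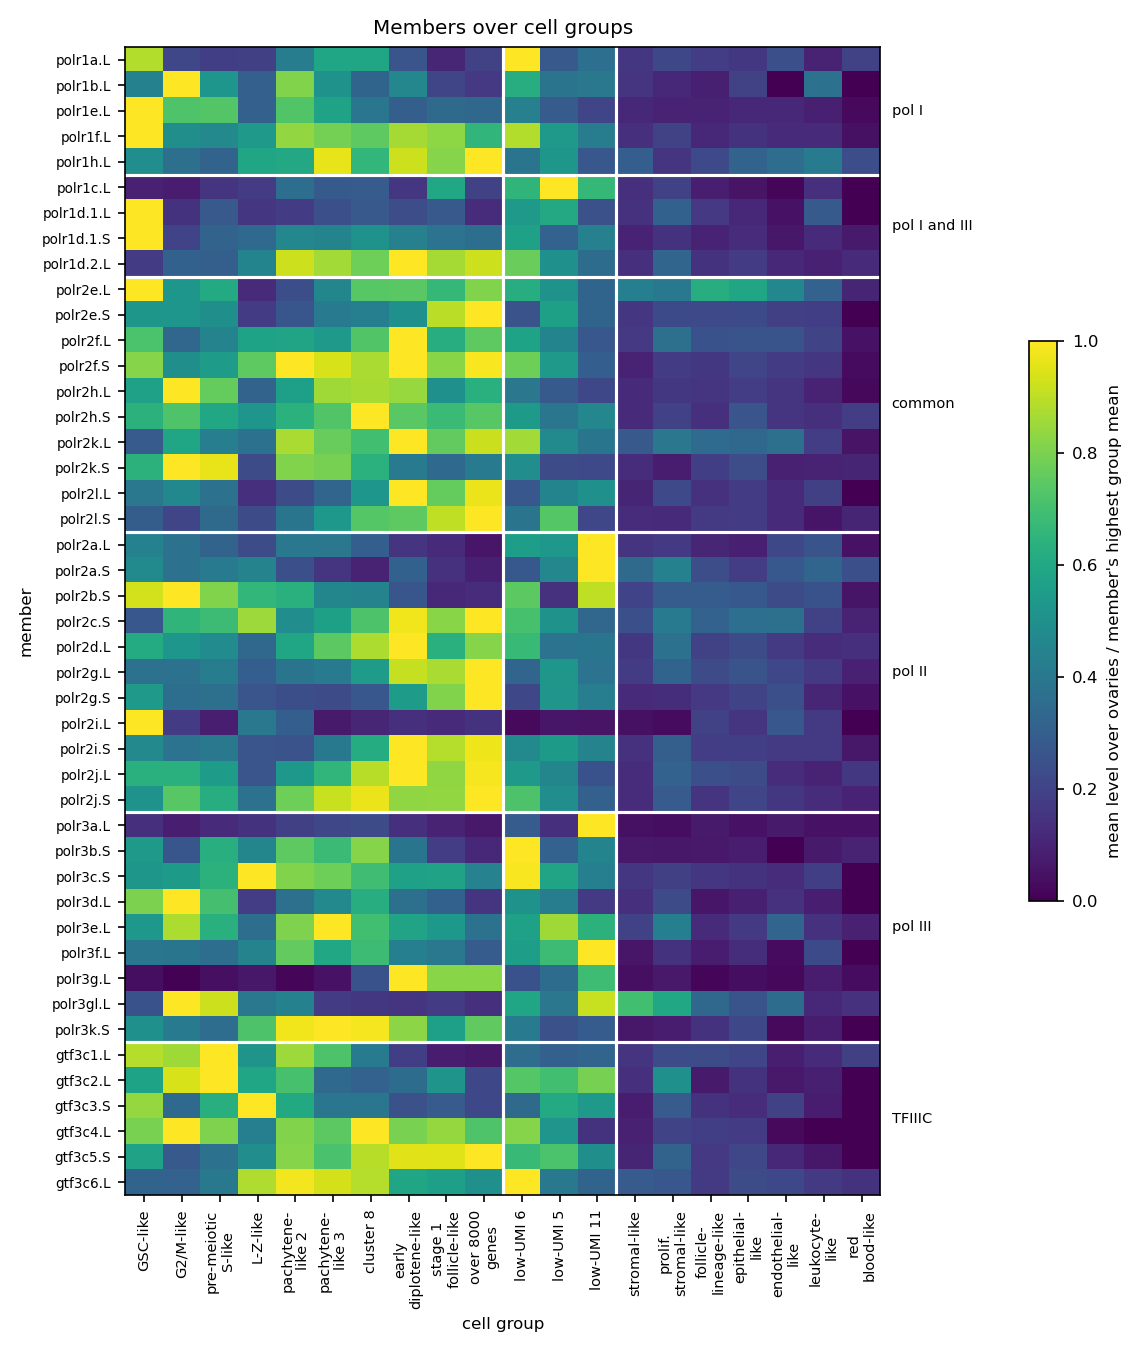
Mean level of 45 of the 46 members (rows, grouped by enzyme) in each cell group (columns), as a fraction of that member's highest group mean, from 0 (dark) to 1 (bright). *polr3g.L* is bright in early diplotene-like and stage 1 follicle-like cells and in barcodes with over 8000 genes, *polr3a.L* stands out in low-UMI cluster 11, and most members are dark in the somatic types.

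Several pol III genes were highest in the middle of this series rather than at its ends. Pachytene-like cluster 3 held the highest mean of the 8 named stages for *polr3a.L*, *polr3e.L* (initiation and termination), *polr3k.S* (RNA cleavage), *polr1h.L* (RNA cleavage in pol I) and *polr2j.S*. Pachytene-like cluster 2 did so for *polr3b.S*, *polr3f.L* of the initiation module and *gtf3c6.L*, and L-Z-like cells for *polr3c.S*, also of the initiation module, and *gtf3c3.S*. *polr3a.L*, the largest subunit, averaged 52.2 CPM in GSC-like, 47.99 in pre-meiotic S-like, 57.8 in L-Z-like, 74.8 in pachytene-like cluster 2, 83.7 in cluster 3, 54.9 in early diplotene-like and 37.2 in stage 1 follicle-like cells.

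In GSC-like against pre-meiotic S-like cells, 2 of 4 pol I genes tested were higher and 0 lower. Of 37 members tested, 4 were higher in GSC-like cells, with 20.7% of all genes tested higher, and 6 were lower, with 19.6% lower, or 40.3% called in all. The 9 others had too few UMIs. Per total UMIs the median gene shifted by 0.26, 8 members were called higher and 3 lower, and 68.6% of all genes called were higher, against 51.3% with TMM. *polr1a.L*, the largest subunit of pol I, had 48.2, 43.1 and 77.1 CPM in GSC-like cells, against 10.3, 10.0 and 14.9 in pre-meiotic S-like cells. The groups did not overlap, and the log2 fold change was 1.95 (SE 0.35, edgeR's quasi-likelihood test, adjusted p = 0.00028). *polr1a.L* averaged under 20 UMIs per sum. *polr1f.L*, a stalk subunit of pol I, had 252, 248 and 187 CPM in GSC-like cells against 133, 95.4 and 95.6. Its log2 fold change of 0.84 (SE 0.20, adjusted p = 0.00328) missed the threshold without ovary 2, at 0.66 (adjusted p = 0.106).

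The subunits shared by pol I and pol III split. *polr1d.1.S* had 68.9, 75.5 and 55.1 CPM in GSC-like cells, against 22.2, 20.01 and 20.9 in pre-meiotic S-like cells (log2 fold change 1.42, SE 0.29, adjusted p = 0.000842). *polr1d.2.L*, another gene of the same name, had 52.8, 62.01 and 71.6 in GSC-like cells against 121, 100.03 and 105 (−1.10, SE 0.24, adjusted p = 0.00129). Neither gene's groups overlapped, so 2 genes of the same subunit went opposite ways between these stages. *polr1d.1.L* stood at 19.3 ± 7.39 in GSC-like cells against 5.42 ± 3.63 and was not tested.

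Lower in GSC-like cells was *polr2c.S*, an assembly scaffold of pol II, at 64.3, 43.1 and 38.5 CPM against 129, 135 and 106 in pre-meiotic S-like cells (log2 fold change −1.55, SE 0.25, adjusted p = 0.000104). *polr3gl.L* had 16.1, 2.70 and 0 in GSC-like cells, from 7, 1 and 0 UMIs, against 29.4, 20.01 and 19.4. It passed the test (−1.79, SE 0.56, adjusted p = 0.0162), but not without ovary 2 (−1.48, adjusted p = 0.120). Both copies of the small common subunit *polr2k* and *polr2h.L* were lower too, with groups that overlapped: *polr2k.S* had 50.5, 91.7 and 88.1 in GSC-like cells against 146, 111 and 89.7 (−0.91, adjusted p = 0.0125), and neither copy passed without ovary 1 (adjusted p = 0.227 for *polr2k.S* and 0.139 for *polr2k.L*), nor *polr2k.L* without ovary 2 (0.152). The largest subunits of the other enzymes did not pass: fold changes were 0.07 for *polr2a.L*, 0.00 for *polr2a.S*, −0.07 for *polr2b.S*, −0.11 for *polr3a.L* and −0.55 for *polr3b.S*, and *gtf3c1.L* was at −0.54. *polr2i.L* had the largest fold change of all members, 3.21 (SE 0.40, adjusted p = 8.37e-06). It averaged under 20 UMIs per sum and is named here after its values were seen. Without ovary 2, 6 members passed in place of 10. Epithelial markers, 7 genes, summed to 143 to 207 CPM in GSC-like cells, with 0 to 3 of them at 0, and to 62.8 to 96.9 in pre-meiotic S-like cells, with 1 to 2 at 0. Endothelial markers, 13 genes, summed to 73.5 to 93.6 against 39.7 to 46.3, with 4 to 7 at 0 in each group, stromal markers (12 genes) to 66.1 to 122 against 10.3 to 65.7, and germ cell markers (3 genes, none at 0) to 3273 to 4012 against 5675 to 7143. None of these ranges overlapped, and their part in the result was not tested.

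**Figure D3:**
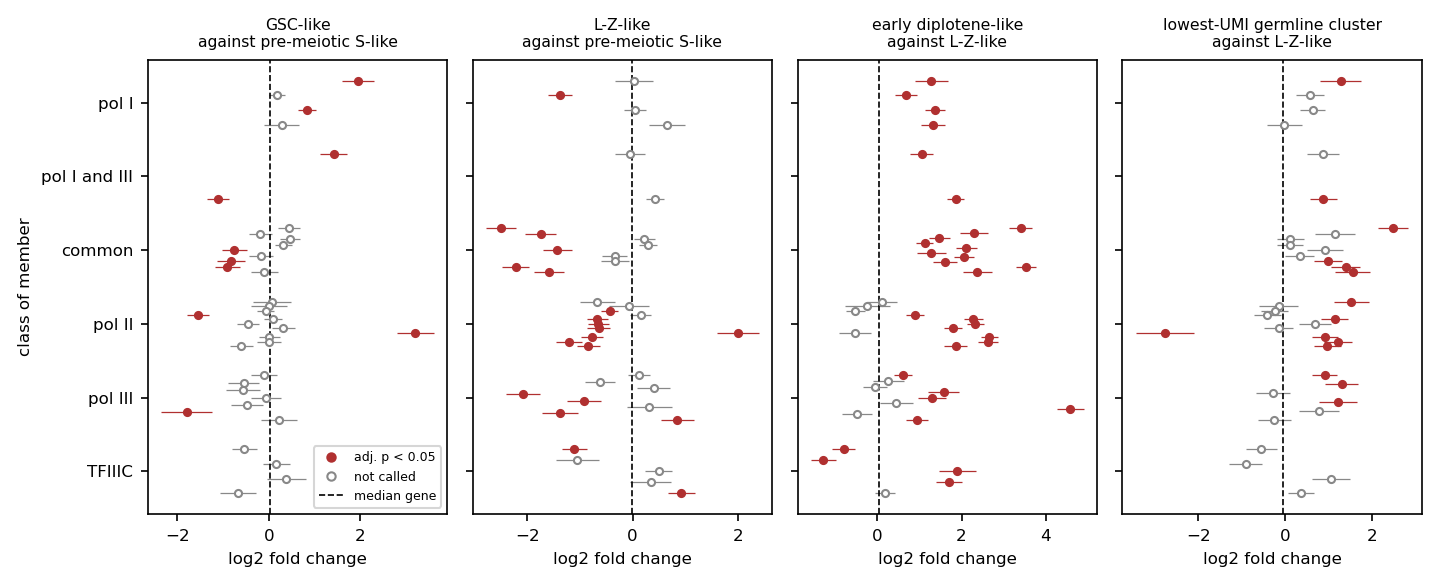
Log2 fold change (horizontal axes) of each tested member, by class (vertical axis), in 4 comparisons; bars are standard errors, filled points passed an adjusted p of 0.05 and dashed lines mark the median gene. Most points lie left of the median gene in L-Z-like against pre-meiotic S-like cells (17 lower, 3 higher) and right of it in early diplotene-like against L-Z-like cells (30 higher, 2 lower).

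L-Z-like cells, at the start of meiotic prophase, had less transcript of many members than pre-meiotic S-like cells. In L-Z-like against pre-meiotic S-like cells, 17 of 39 members tested were lower, with 21.7% of all genes tested lower, and 3 were higher, with 21.1% of all genes tested higher, or 42.8% called in all. Per total UMIs the median gene shifted by 0.15 and 13 members were lower and 5 higher. The median log2 fold change of the members was −0.44, against −0.01 over all genes. Common subunits were lower in 5 of 9 tested and pol II subunits in 7 of 11. Pol I was lower in 1 of 4, pol III in 3 of 8 and TFIIIC in 1 of 5, and neither tested gene of the pol I and pol III pair was called.

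The largest falls among well-counted genes were in common subunits. *polr2e.L* had 15.8, 14.9 and 10.4 CPM in L-Z-like cells, against 77.8, 55.4 and 79.2 in pre-meiotic S-like cells (log2 fold change −2.50, SE 0.28, edgeR's quasi-likelihood test, adjusted p = 3.61e-05). *polr2k.S* had 23.6, 31.7 and 26.1 against 146, 111 and 89.7 (−2.22, SE 0.26, adjusted p = 4.61e-05). In both genes the groups were far apart in every ovary. *polr2e.S* (−1.75), *polr2l.L* (−1.59) and *polr2h.L* (−1.43) also fell, with adjusted p of 0.000551, 0.000748 and 0.00143 and no overlap between groups. The copies of *polr2f*, another common subunit, were not called (0.22 for L and 0.29 for S), so the common subunits did not move as a block.

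*polr1e.L*, a pol I subunit that works in initiation and elongation, had 80.8, 165 and 165 CPM in L-Z-like cells, against 335, 329 and 314 in pre-meiotic S-like cells. Its log2 fold change was −1.38 (SE 0.22, adjusted p = 0.000415), while *polr1a.L* stood at 0.03 and *polr1f.L* at 0.04. In pol III, *polr3d.L*, a subunit of the module used in initiation and termination, had 7.88, 7.75 and 7.82 against 34.2, 24.6 and 31.4 (−2.08, SE 0.33, adjusted p = 0.000361). It averaged under 20 UMIs per sum and is named outside the rule for naming genes. *polr3gl.L* had 9.85, 9.69 and 10.4 against 29.4, 20.01 and 19.4 (−1.38, SE 0.34, adjusted p = 0.00612, and adjusted p = 0.0534 without ovary 2). The catalytic *polr3a.L* and *polr3b.S* were not called, at 0.12 and −0.62.

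*gtf3c1.L*, the largest TFIIIC subunit, which contacts the B box of tRNA genes, had 51.2, 46.5 and 35.2 CPM in L-Z-like cells, against 69.9, 103.1 and 83.7 in pre-meiotic S-like cells. It fell by 1.11 on the log2 scale (adjusted p = 0.00276, and 0.0510 without ovary 2). *gtf3c6.L*, the smallest TFIIIC subunit, went the other way, with 67.0, 91.7 and 96.4 against 51.6, 40.8 and 25.4 (0.93, adjusted p = 0.0131), though not without ovary 2 (0.90, adjusted p = 0.103) or ovary 3 (0.62, adjusted p = 0.128). *polr3k.S*, which trims RNA in pol III, stood at 0.85 (adjusted p = 0.0463) and *polr2b.S* at −0.44 (adjusted p = 0.0494). Both missed the threshold in most left-out sets, *polr3k.S* without ovary 2 (adjusted p = 0.419) or 3 (0.156) and *polr2b.S* without ovary 1 (0.116), 2 (0.210) or 3 (0.131). *polr1d.2.L* had 139.9, 166 and 178 in L-Z-like cells against 121, 100.03 and 105. Its log2 fold change of 0.42 had an adjusted p of 0.0737, and of 0.0319 with the ovary as a block. Without ovary 2, 10 members passed in place of 20. Endothelial markers summed to 76.9 to 106 CPM in L-Z-like cells, with 1 to 4 of 13 at 0, against 39.7 to 46.3 in pre-meiotic S-like cells, with 4 to 7 at 0. Leukocyte markers, 10 genes, summed to 27.4 to 39.4, with 1 to 5 at 0, against 10.5 to 23.1, with 4 to 6 at 0, and germ cell markers to 7277 to 8142 against 5675 to 7143. These ranges did not overlap either, and their part in the result was not tested.

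Most members were higher in early diplotene-like than in L-Z-like cells. Of 41 members tested, 30 were higher, with 31.6% of all genes tested higher, and 2 were lower, with 29.8% lower, or 61.4% called in all. The median log2 fold change of the members was 1.33, against 0.03 over all genes. All 10 common subunits, all 4 pol I subunits tested and both genes of the pol I and pol III pair were higher, as were 7 of 11 pol II, 5 of 9 pol III and 2 of 5 TFIIIC genes. This comparison depends on scaling. Per total UMIs the median gene stood at −0.68, a shift of −0.71 from TMM, and 19 members were called higher and 6 lower. Of all genes called, 51.5% were higher with TMM and 26.7% with total UMIs.

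*polr3g.L* had the largest rise of any member. It had 143, 91.2 and 96.2 CPM in early diplotene-like cells, from 60, 1221 and 436 UMIs, against 5.91, 8.40 and 6.51 in L-Z-like cells, from 3, 13 and 5 UMIs. The lowest early diplotene-like value was above the highest L-Z-like value by a wide margin. The log2 fold change was 4.58 (SE 0.32, edgeR's quasi-likelihood test, adjusted p = 4.04e-06) and stayed between 3.87 and 4.78 in 14 other settings, all past the threshold.

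Small common and pol II subunits came next. *polr2l.L*, a small zinc-binding common subunit, had 153, 131 and 120 CPM in early diplotene-like cells, against 15.8, 20.7 and 18.2 in L-Z-like cells (log2 fold change 3.54, adjusted p = 3.17e-06). *polr2e.L* had 66.9, 104 and 88.0 against 15.8, 14.9 and 10.4 (3.402, adjusted p = 7.53e-06), at levels that overlap those of pre-meiotic S-like cells. *polr2i.S*, which acts in proofreading by pol II, had 203, 227 and 199 against 57.1, 46.5 and 61.2 (2.66, adjusted p = 6.74e-06). *polr2j.L*, an assembly partner of *polr2c*, stood at 127, 211 and 159 against 37.4, 51.0 and 41.7 (2.64, adjusted p = 1.35e-05), and *polr2l.S* at 26.3, 22.2 and 28.2 against 7.88, 9.04 and 6.51 (2.38, adjusted p = 0.000174). None of these groups overlapped. *polr1d.2.L* had 370.3, 354 and 349 against 139.9, 166 and 178 (1.86, adjusted p = 2.99e-05), and its mean level was lowest in GSC-like cells and highest in early diplotene-like cells.

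Of the 6 genes tested for the largest and second-largest subunits, *polr1a.L* and *polr3a.L* were called higher and 4 were not called. *polr2a.L* and *polr2a.S*, the largest subunit of pol II, had log2 fold changes of 0.11 (adjusted p = 0.963) and −0.24 (adjusted p = 0.724). *polr2b.S*, the other catalytic subunit, had 33.4, 61.3 and 56.5 CPM in early diplotene-like cells, against 118, 131 and 128 in L-Z-like cells. Its level was lower in all 3 ovaries, while its log2 fold change of −0.53 had an adjusted p of 0.0618, and of 0.0236 with the ovary as a block. *polr3b.S* stood at 0.26 (adjusted p = 0.549). *polr3a.L* had 62.1, 52.5 and 50.1 against 59.1, 56.8 and 57.3, with groups that overlapped. Its log2 fold change of 0.61 passed (adjusted p = 0.0267) but was −0.10 per total UMIs, and it missed the threshold without ovary 2 (adjusted p = 0.237) or 3 (0.155). *polr1a.L* had 7.17, 26.1 and 17.2 against 7.88, 15.5 and 13.03, which overlap, and passed (1.29, adjusted p = 0.0165), but not without ovary 3 (1.31, adjusted p = 0.103), with DESeq2 or per total UMIs. *polr1d.1.S* passed at 1.05 (adjusted p = 0.00553), with overlapping groups, but not without ovary 2 (0.80, adjusted p = 0.143).

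TFIIIC divided in this comparison. *gtf3c3.S*, a scaffold of the A-box-binding arm, had 14.3, 14.7 and 14.3 CPM in early diplotene-like cells, against 74.9, 55.6 and 44.3 in L-Z-like cells (log2 fold change −1.28, SE 0.29, adjusted p = 0.00298, past the threshold in all 14 other settings). *gtf3c1.L* had 16.7, 16.1 and 14.6 against 51.2, 46.5 and 35.2 (−0.80, adjusted p = 0.0281), but did not pass without ovary 1 (adjusted p = 0.16), 2 (0.124) or 3 (0.0974). *gtf3c5.S* had 33.4, 49.0 and 41.9 against 25.6, 25.2 and 13.03 (1.71, adjusted p = 0.000717), and *gtf3c4.L* was higher as well (1.90, adjusted p = 0.00371). Endothelial markers, 13 genes, summed to 4.78 to 7.92 CPM in early diplotene-like cells, with 2 to 11 of them at 0, and to 76.9 to 106 in L-Z-like cells, with 1 to 4 at 0. Red blood markers summed to 2.39 to 11.3 against 20.03 to 49.5, and germ cell markers to 2086 to 2715 against 7277 to 8142. The oocyte markers *zp4.L*, *velo1.L* and *figla.L* summed to 850 to 1142 against 140.2 to 327. Stromal, follicle-lineage, epithelial and leukocyte ranges overlapped. The part of these markers in these results was not tested.

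The pol III paralogs *polr3g.L* and *polr3gl.L* encode alternative forms of 1 subunit of the initiation module. In human and mouse cells *POLR3G* is known from stem cells and oocytes and *POLR3GL* from most tissues. Here *polr3g.L* averaged 4.23 CPM in GSC-like, 0.712 in G2/M-like, 4.34 in pre-meiotic S-like, 6.94 in L-Z-like, 1.95 in pachytene-like cluster 2 and 5.45 in cluster 3, before the 110.2 ± 28.8 of early diplotene-like cells. Stage 1 follicle-like cells had 106, 98.8 and 67.2, and barcodes with over 8000 genes 104, 107 and 61.0. The 6 groups from GSC-like to pachytene-like lay within 0 to 8.40 in every ovary, and the 3 oocyte groups within 61.0 to 143, with no overlap. The unnamed cluster 8, which had 8 cells in ovary 1, stood between them at 35.96 and 19.99 in ovaries 2 and 3. The low-UMI clusters are outside these 2 sets. In low-UMI cluster 6 *polr3g.L* had 0, 22 and 20 UMIs, or 88% and 90.9% of the pair in ovaries 2 and 3. Its level there lay between the 2 sets in ovaries 2 and 3. Within each of these 2 sets, neighbours in the order of the means overlapped.

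*polr3gl.L* had a higher level in G2/M-like and pre-meiotic S-like cells than in early diplotene-like cells. It stood at 40.1, 12.8 and 21.6 CPM in G2/M-like cells, 29.4, 20.01 and 19.4 in pre-meiotic S-like cells, 9.85, 9.69 and 10.4 in L-Z-like cells, 5.84, 3.18 and 4.07 in pachytene-like cluster 3 and 2.39, 4.48 and 4.63 in early diplotene-like cells. Its fall from L-Z-like to early diplotene-like cells was not called, as 0 pol III genes were called lower there. GSC-like cells lay below G2/M-like cells in each ovary, with 7, 1 and 0 UMIs of *polr3gl.L*. In them *polr3g.L* had 2, 3 and 0 UMIs, or 22.2% and 75% of the pair in ovaries 1 and 2. Of the UMIs of both paralogs, *polr3g.L* took 7.5%, 23.5% and 18.8% in pre-meiotic S-like cells, 37.5%, 46.4% and 38.5% in L-Z-like cells and 98.4%, 95.3% and 95.4% in early diplotene-like cells. It had 3, 8 and 3 UMIs in pre-meiotic S-like and 3, 13 and 5 UMIs in L-Z-like cells, so the early shares are coarse. *polr3g.L* took 94.1%, 95.9% and 97.2% in stage 1 follicle-like cells. Its share was 0%, 33.3% and 30% in pachytene-like cluster 2, below L-Z-like cells in each ovary, and 40.0%, 65.2% and 61.5% in pachytene-like cluster 3, below early diplotene-like cells in each ovary. These shares rest on 0, 9 and 3 UMIs of *polr3g.L* in cluster 2 and 2, 45 and 8 in cluster 3. They are coarse as well, and their order was not tested. The class sum of pol III, which includes both paralogs, was 220.8 ± 24.3 in pre-meiotic S-like and 316 ± 44.9 in early diplotene-like cells.

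**Figure D4:**
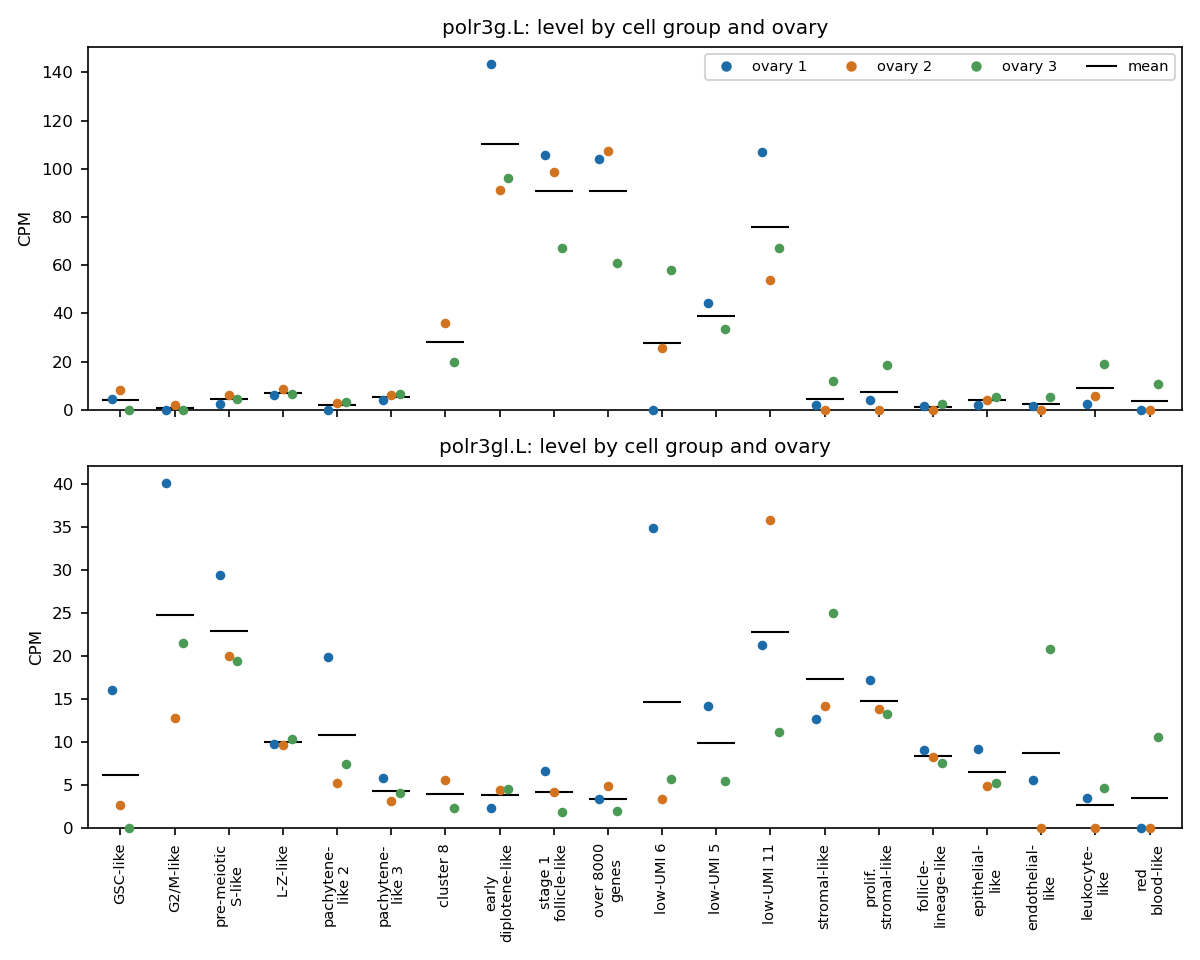
CPM (vertical axes) of *polr3g.L* (top) and *polr3gl.L* (bottom) in each germ cell group and somatic type (horizontal axis); points are ovaries with at least 10 cells of the group and black lines their mean. *polr3g.L* is at or below 8.40 up to pachytene-like cluster 3 and at 61.0 to 143 in early diplotene-like and stage 1 follicle-like cells and in barcodes with over 8000 genes, while *polr3gl.L* is highest in G2/M-like and pre-meiotic S-like cells.

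Between stage 1 follicle-like and early diplotene-like cells no member passed edgeR's threshold in the fit without the ovary as a block. Of 45 members tested, 0 passed, against 7.07% of all genes tested (5.07% higher and 2% lower), while 6 had an unadjusted p under 0.05 and DESeq2 called 2. *polr1c.L*, shared by pol I and pol III, had 27.7, 7.09 and 16.7 CPM in stage 1 follicle-like cells, against 2.39, 5.53 and 5.74 in early diplotene-like cells (log2 fold change 1.85, SE 0.48, adjusted p = 0.0513). *polr2b.S* had 17.7, 22.2 and 23.005 against 33.4, 61.3 and 56.5 (−1.12, SE 0.31, adjusted p = 0.0631). Neither overlapped between groups. With the ovary as a block 5 members passed: *polr1c.L* (1.502, adjusted p = 0.0186) and *polr2e.S* (0.94, adjusted p = 0.00572) were higher and *polr2b.S* (−1.08, adjusted p = 0.00487), *gtf3c1.L* (−1.25, adjusted p = 0.0218) and *polr1a.L* (−1.03, adjusted p = 0.0309) lower. Outside G2/M-like cells, *polr2b.S* averaged 177 CPM in GSC-like, 153 in pre-meiotic S-like and 126 in L-Z-like cells. Later means were 120 in pachytene-like cluster 2, 87.0 in cluster 3, 50.4 in early diplotene-like and 20.97 in stage 1 follicle-like cells. Of the 8 named stages, *polr2b.S* had its highest mean in G2/M-like cells. It was 1 of 7 members whose mean of the 8 named stages was lowest in stage 1 follicle-like cells, and 6 of these 7 are largest or second-largest subunits (*polr1a.L*, *polr1b.L*, *polr2a.L*, *polr2a.S*, *polr2b.S* and *polr3b.S*), with *gtf3c1.L*. The remaining largest subunit, *polr3a.L*, had its lowest mean in G2/M-like cells. This ranking of means was not tested, and the share of all genes lowest in stage 1 follicle-like cells is not given. *polr1b.L*, the partner of *polr1a*, was at 4.29 ± 2.50 in early diplotene-like cells and at most 9.27 in the mean of any of the 8 stages, and had too few UMIs for a test between stages.

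Barcodes with over 8000 genes, 337 in all, lie above the gene limit used for cells. None of 45 members passed against stage 1 follicle-like cells by DESeq2 or by edgeR without the ovary as a block, against 0% of 14087 genes tested by edgeR. By edgeR 3 had an unadjusted p under 0.05. These fits left out the pairing within ovaries, where deviations of the same ovary correlated at 0.654 to 0.778. With the ovary as a block 3 members passed, *polr1c.L* (−1.39, adjusted p = 0.000197) and *polr3d.L* (−0.90, adjusted p = 0.0275) lower and *polr3k.S* (0.63, adjusted p = 0.0297) higher. *polr1c.L* had 9.19, 3.75 and 4.09 CPM in these barcodes, against 27.7, 7.09 and 16.7. Per barcode the members together had 347 UMIs in this group and 81.3 in stage 1 follicle-like cells, alongside more UMIs in total.

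Low-UMI cluster 6, the shallowest germ cell cluster (median of 875 UMIs per cell, averaged over ovaries), was set against L-Z-like cells. Of 36 members tested, 14 were higher, with 13.5% of all genes tested higher, and 1 was lower, with 16.8% lower, or 30.3% called in all. With DESeq2 the median gene shifted by −0.17, and 30.1% of all genes called were higher, against 44.5% with edgeR. The median log2 fold change was 0.83 over members and −0.05 over all genes. *polr2e.L* had 69.7, 75.1 and 72.3 CPM in cluster 6, from 2, 65 and 25 UMIs, against 15.8, 14.9 and 10.4 in L-Z-like cells (log2 fold change 2.48, SE 0.35, edgeR's quasi-likelihood test, adjusted p = 0.000159), and passed in all 14 other settings. *polr2a.L* had 34.9, 48.5 and 34.7, from 1, 42 and 12 UMIs, against 17.7, 12.3 and 18.2 (1.52, adjusted p = 0.00922, and 0.332 without ovary 2). *polr3a.L* had 139, 106 and 95.5 against 59.1, 56.8 and 57.3 (0.91, adjusted p = 0.0227, and 0.265 without ovary 2). The groups of these 3 genes did not overlap. L-Z-like cells had the lowest mean of the named stages for 13 members, among them *polr2e.L*, *polr2k.S*, *polr2j.L* and *polr2d.L*. The *polr2e.L* levels of cluster 6 lay within the ranges of pre-meiotic S-like and of early diplotene-like cells. A level above that of L-Z-like cells is therefore not by itself particular to cluster 6.

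Other calls in cluster 6 were *polr2k.S* (1.39), *polr3b.S* (1.30), *polr1a.L* (1.27), *polr2j.L* (1.22), *polr2d.L* (1.14), *polr2k.L* (0.99) and *polr1d.2.L* (0.88). *polr1a.L*, with 4, 19 and 10 UMIs in cluster 6, lost its call in 10 of 13 other settings. The number of calls changed with the ovaries used: 2 members passed without ovary 2 or without ovary 3, 19 passed without ovary 1, and DESeq2 called 3. *polr2i.L*, at an average of 9.17 UMIs per sum, was the 1 member called lower (−2.76, adjusted p = 0.00544). Ovary 1 had 24 cells and 28694 UMIs in this cluster. Red blood markers, 11 genes, summed to 0 to 4316 CPM in cluster 6 against 20.03 to 49.5 in L-Z-like cells, stromal markers (12 genes) to 47.4 to 1359 against 31.5 to 52.1, and germ cell markers to 3234 to 4322 against 7277 to 8142. The oocyte markers *zp4.L*, *velo1.L* and *figla.L* summed to 418 to 775 in cluster 6 against 140.2 to 327, epithelial markers to 130.2 to 174 against 47.3 to 106, and leukocyte markers to 40.5 to 105 against 27.4 to 39.4. Endothelial markers summed to 0 to 34.7 against 76.9 to 106, with 7 to 13 of them at 0 in cluster 6. The red blood and stromal ranges overlapped and the others did not. Their part in the result was not tested.

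Low-UMI clusters 5 and 11 were set together against stage 1 follicle-like cells. Cluster 11 gave 93675 of the 726533 UMIs of this sum in ovary 1, 55905 of 68868 in ovary 2 and 268425 of 1167854 in ovary 3. The sums are thus different mixtures of the 2 clusters in each ovary, and that of ovary 2 held 27 cells. The part of this mixture in the result was not tested. Clusters 5 and 11 were chosen because *zp4.L* and *velo1.L* were above the L-Z-like level. In addition, 3 times the median UMI count of each cluster lay below that of stage 1 follicle-like cells. The medians per cell, averaged over ovaries, were 1376 in cluster 5 and 2924 in cluster 11. Stage 1 follicle-like cells had 19914 and L-Z-like cells 1936, so cluster 11 lay above L-Z-like cells. Of 43 members tested, 4 were higher, with 8.65% of all genes tested higher, and 1 was lower, with 0.765% lower, or 9.42% called in all. The median log2 fold change was −1.003 over members and 0.02 over all genes, and 30 members had an unadjusted p under 0.05. Per total UMIs the median gene shifted by 0.38 and 5 members were higher and 0 lower. With DESeq2 3 were higher and 9 lower, and 71.3% of all genes called were higher, against 91.9% with edgeR. *polr3a.L* had 106, 218 and 141 CPM in the low-UMI clusters, from 77, 15 and 165 UMIs, against 49.1, 28.4 and 34.1 in stage 1 follicle-like cells (log2 fold change 1.50006, SE 0.30, adjusted p = 0.0139). *polr2a.L* had 24.8, 87.1 and 59.9 against 8.48, 6.62 and 9.73 (2.08, adjusted p = 0.0130), and *polr2a.S* and *gtf3c1.L* also passed (1.93, adjusted p = 0.0414, and 1.72, adjusted p = 0.0493). *polr3g.L* was lower (−1.35, adjusted p = 0.0473), with 52.3, 43.6 and 41.1 against 106, 98.8 and 67.2, but lost its call in 10 of 16 other settings. No member passed without ovary 2 or without ovary 3, where these 5 had adjusted p from 0.0615 to 0.524, while 18 passed without ovary 1, *gtf3c1.L* (adjusted p = 0.0902) not among them. With the ovary as a block 18 passed, 6 higher and 12 lower, *polr2b.S* (1.23, adjusted p = 0.0102) and *polr3gl.L* (1.57, adjusted p = 0.0343) among them.

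The 2 clusters differed, and taking them apart was chosen after seeing the data. Cluster 11 alone, with 17, 18 and 69 cells, had 5 of 42 members tested higher than stage 1 follicle-like cells, with 21% of all genes tested higher, and 22 lower, with 15.6% lower, or 36.6% called in all. *polr3a.L* reached 480.4, 268 and 428 CPM in cluster 11, from 45, 15 and 115 UMIs, against 49.1, 28.4 and 34.1 in stage 1 follicle-like cells (log2 fold change 2.85, adjusted p = 0.00018). The 9 pol III genes other than *polr3g.L* summed to 619, 429 and 555 in cluster 11, so *polr3a.L* made up most of that sum. *polr2b.S* had 181, 179 and 153 against 17.7, 22.2 and 23.005 (2.34, adjusted p = 0.000756), and *polr2a.L*, *polr2a.S* and *gtf3c1.L* were higher as well (2.46, 2.48 and 1.63). All 5 encode the largest or second-largest subunit of an enzyme or of TFIIIC, and neither *polr3a.L* nor *polr2b.S* overlapped between groups. Stage 1 follicle-like cells had the lowest mean of the named stages for *polr2a.L*, *polr2a.S*, *polr2b.S* and *gtf3c1.L*, though not for *polr3a.L*. The *polr2b.S* levels of cluster 11 were close to the means of GSC-like and pre-meiotic S-like cells. In cluster 5, *polr3a.L* had 50.6 and 55.6 in ovaries 1 and 3, and 0 members passed in cluster 5 alone, which had 9 cells in ovary 2. Stromal markers summed to 257 to 978 in cluster 5, 10.7 to 59.6 in cluster 11 and 20.7 to 53.1 in stage 1 follicle-like cells. Follicle-lineage, red blood and leukocyte markers summed to 95.6 to 267, 33.2 to 181 and 13.3 to 232 in cluster 5. In stage 1 follicle-like cells they summed to 0.473 to 16.6, 3.31 to 29.9 and 2.06 to 4.43. Leukocyte markers summed to 17.9 to 21.4 in cluster 11, whose follicle-lineage and red blood ranges overlapped stage 1. Epithelial and germ cell ranges of both clusters overlapped it too. Endothelial markers summed to 64.1 to 161 in cluster 11 against 3.78 to 11.8, and the oocyte markers *zp4.L*, *velo1.L* and *figla.L* to 1052 to 1620, 411 to 1313 and 1345 to 1648 in cluster 5, cluster 11 and stage 1 follicle-like cells. Both clusters were chosen through *zp4.L* and *velo1.L*, so their levels of these genes above L-Z-like cells follow from that choice. The part of these marker lists in the result was not tested.

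Germ cells as a whole had more of most members than somatic cells. The summed level was 3011, 3768 and 3267 CPM in germ cells, against 808, 1247 and 1133 in somatic cells, and 44 of 46 members had a higher level in all 3 ovaries, as did 57.4% of all genes tested. Pol I subunits summed to 447 ± 37.6 in germ cells against 115 ± 28.6 in somatic cells, pol III subunits to 274 ± 20.7 against 71.9 ± 13.9 and TFIIIC to 182 ± 25.6 against 59.9 ± 5.52. On the TMM scale 27 of 46 were called higher, with 20.9% of all genes tested higher, and 0 lower, with 27.6% lower, or 48.4% called in all. Called were 8 of 10 pol III and 5 of 6 TFIIIC genes, 6 of 10 common, 2 of 5 pol I, 2 of 4 of the pol I and pol III pair and 4 of 11 pol II genes. Per total UMIs the median gene shifted by 0.74, and 38 members were called higher and 0 lower. Of all genes called, 43.1% were higher with TMM and 69.0% with total UMIs.

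*polr3g.L* led here too, with 53.9, 47.1 and 57.4 CPM in germ cells, against 2.10, 3.31 and 8.45 in somatic cells (log2 fold change 2.83, SE 0.49, edgeR's quasi-likelihood test, adjusted p = 0.00282). *polr1f.L* had 180.2, 166 and 178 against 22.02, 35.6 and 41.0 (1.71, adjusted p = 0.0022). *polr3b.S* had 18.2, 23.7 and 18.7 against 3.12, 4.28 and 4.16 (1.69, adjusted p = 0.00254). None of these groups overlapped. *gtf3c4.L* (1.63), *gtf3c5.S* (1.49), *polr1d.2.L* (1.49), *polr1d.1.S* (1.16) and *polr3a.L* (0.81) passed as well. Not called were *polr1a.L* (0.21), *polr1b.L* (0.41), *polr1d.1.L* (0.32), *polr2a.L* (0.33), *polr2b.S* (−0.18) and *gtf3c1.L* (0.24).

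Some of these calls were lost when 1 ovary was left out, which also leaves fewer sums to test. Without ovary 3 only 4 members passed, and *polr1d.1.S*, *polr1d.2.L*, *polr3a.L* and *gtf3c4.L* had adjusted p of 0.0899, 0.0873, 0.122 and 0.0610. With the ovary as a block 33 members were higher and 3 lower: *polr2a.S* (−0.71, adjusted p = 0.0229), *polr2e.L* (−0.52, adjusted p = 0.0357) and *polr3gl.L* (−1.04, adjusted p = 0.0296) turned into lower calls and *polr1c.L* (1.37, adjusted p = 0.00824) into a higher one. These fold changes are on the TMM scale. By CPM, somatic *polr2e.L* stood at 77.6%, 87.7% and 95.3% of its germ cell level, so germ cells were higher in each ovary. For *polr2a.S* and *polr3gl.L* the direction by CPM differed among ovaries. UMIs of oocyte genes were also found in somatic cells. *zp4.L*, a coat protein gene of oocytes, stood in somatic cells at 2.59%, 0.793% and 12.8% of its stage 1 follicle-like level, and *velo1.L*, a germ plasm gene, at 2.42%, 1.15% and 14.4%. *polr3g.L* stood at 1.98%, 3.35% and 12.6%, below both markers in ovaries 1 and 3 and above both in ovary 2. The part of free oocyte RNA in the somatic *polr3g.L* level was not tested.

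Among the 7 somatic types few members were called. Of 29 members tested, 2 passed, against 49.8% of all genes tested. The rest of the 46 members had too few UMIs for this test. Counts were also low in some sums of tested members, with 0, 0 and 6 UMIs for both copies of *polr2f* in red blood-like cells. *polr3gl.L* had 12.7, 14.2 and 24.97 CPM in stromal-like and 17.2, 13.9 and 13.3 in proliferating stromal-like cells, 9.16, 8.30 and 7.62 in follicle-lineage-like cells and 9.20, 4.98 and 5.29 in epithelial-like cells (edgeR's quasi-likelihood test, adjusted p = 0.0475). *polr2e.L* ranged from 63.8 to 78.5 in follicle-lineage-like cells to 0 to 21.3 in red blood-like cells, from 1, 0 and 2 UMIs (adjusted p = 0.0323). Neither passed without any 1 of the 3 ovaries, and 7 members passed with the ovary as a block.

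The copies of a gene did not always share a course. For *polr2k*, a small common subunit, the S copy held 66.2%, 64.6% and 67.4% of the UMIs of the pair in pre-meiotic S-like cells, 31.6%, 33.1% and 37.7% in L-Z-like cells and 15.3%, 33.4% and 30.7% in early diplotene-like cells. The share of L-Z-like cells lay below that of pre-meiotic S-like cells in every ovary. In somatic cells it was 31.4%, 36.2% and 33.03%. For *polr2i* the S copy held 95.7%, 94.1% and 96.8% in pre-meiotic S-like cells and 76.3%, 71.3% and 77.0% in L-Z-like cells, and it was back at 98.8%, 95.6% and 97.0% in early diplotene-like cells. In GSC-like cells it was 61.3%, 77.05% and 65.2%. These shares are given without a test, and they rest on reads that could be assigned to 1 copy.

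**Figure D5:**
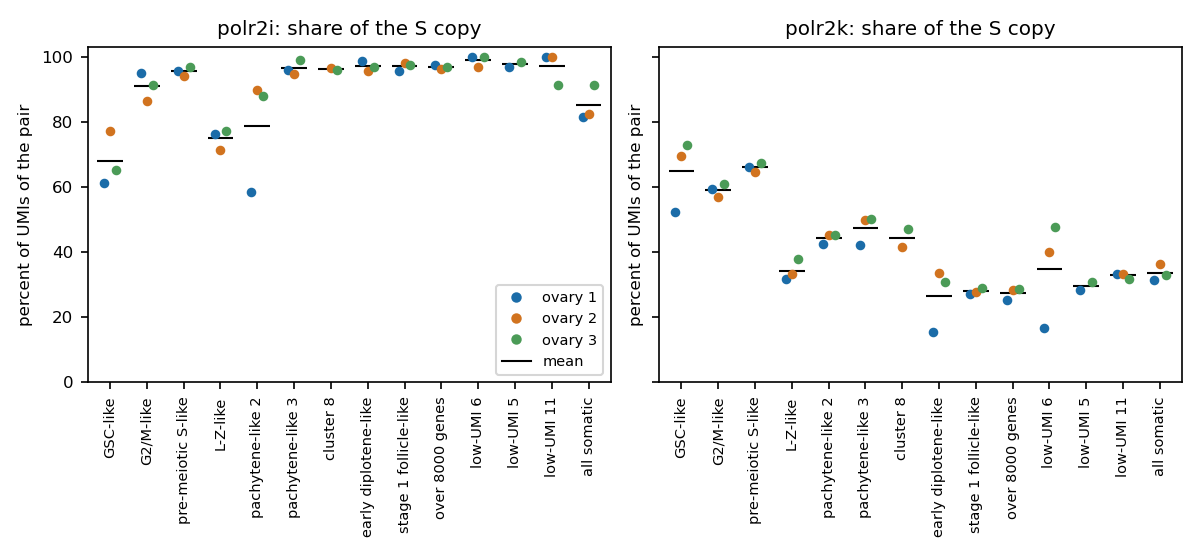
Percent of the UMIs of both copies that belong to the S copy (vertical axis) for *polr2i* (left) and *polr2k* (right) in each germ cell group, in barcodes with over 8000 genes and in all somatic cells (horizontal axes); points are ovaries and black lines their mean. The *polr2i* share dips in GSC-like and L-Z-like cells and in ovary 1 of pachytene-like cluster 2, and the *polr2k* share is 64.6% to 67.4% in pre-meiotic S-like cells and 31.6% to 37.7% in L-Z-like cells.

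The other genes of the 3 pathways were counted from a list of 5 pol I, 28 pol II and 17 pol III factors. In early diplotene-like against L-Z-like cells 2 of 5 pol I factors tested were higher and 1 lower, 7 of 21 pol II factors higher and 2 lower, and 7 of 12 pol III factors higher and 2 lower, with 31.6% of all genes tested higher and 29.8% lower. *gtf3a.L*, which encodes the 5S-binding factor TFIIIA, had 1469, 1265 and 1525 CPM in early diplotene-like cells, against 234, 197 and 302 in L-Z-like cells (log2 fold change 3.26, adjusted p = 5.92e-06). Its groups did not overlap. In L-Z-like against pre-meiotic S-like cells 4 of 5 pol I factors were lower and 0 higher, with 21.7% of all genes tested lower and 21.1% higher. Of 22 pol II factors tested 4 were higher and 2 lower, and of 10 pol III factors 1 was higher and 2 lower. *ubtf.L*, which encodes the upstream binding factor of ribosomal genes, had 57.1, 36.2 and 42.99 in L-Z-like cells, against 369, 331 and 462 in pre-meiotic S-like cells (−3.28, adjusted p = 1.35e-06). *tbpl2.L*, a TATA-binding protein paralog known from vertebrate oocytes, had 39.4, 56.2 and 37.8 against 0.794, 2.31 and 8.97 (3.62, adjusted p = 0.000157), and *brf1.L*, a TFIIIB subunit that recruits pol III, was higher (1.31, adjusted p = 0.00276).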

How the data were processed

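Libraries were made by the authors with the 10x Chromium GEM-X 3′ kit and counted with Cell Ranger 8.0.1, per the submitters' processing notes. The deposited values are UMI counts per gene and barcode with no normalization, and the genome build is not given in the sources used here. Reads of near-identical copies may have been dropped or split by the authors' counting. Features without a name (24, with 0.363% to 0.443% of UMIs) were left out.

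Following the study's methods, barcodes holding between 100 and 8000 genes and no more than 1.5% mitochondrial UMIs (13 genes) were integrated and clustered in Seurat 5.3.0 (R 4.3.3), with 20 dimensions and resolution 1 for all cells and 30 dimensions and resolution 0.5 for germline cells. Of the 2000 variable genes, 9 were members and were removed. Clusters were rebuilt and named from marker lists, so they may differ from the study's. Germline clusters had a summed *ddx4* and *dazl* level of at least 13.2 per 10000 UMIs, against at most 3.84 in somatic clusters. Scrublet marked 49, 7 and 35 cells as doublets, which were kept, and 7 of 5353 cells in ovary 2 is too few for the caller to be relied on. Barcodes shared between libraries and kept numbered 5 to 11 a pair.

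UMIs were summed per ovary and group of at least 10 cells and tested with edgeR 4.0.16 (quasi-likelihood, TMM, filterByExpr, Benjamini-Hochberg over all genes tested, 0.05), on the compared groups only. Standard errors were computed as the fold change over the square root of F. DESeq2 1.42.0 was an alternative. Others were no filter on low counts, total UMI scaling, leaving out each ovary, the ovary as a block, germline resolution 1, members kept as variable genes, 1 joint fit, sums thinned to equal depth, at least 500 genes per cell, homeologs summed, removal of the top 5% of doublet scores, and clusters rebuilt under another character sort order. Groups of 1 ovary come from the same animal and so are paired, but the main fits did not use this pairing. Over 24 pairs of group sums the deviations of the same ovary correlated at 0.044 to 0.778, 23 of them over 0.1. The test was also run on simulated counts. These were drawn without an ovary effect, so that check cannot speak to the pairing.

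Genes were named by a rule: the largest subunits, *polr1c*, *polr1d*, *polr3g*, *polr3gl* and *gtf3c1* always, and up to 6 called members in each direction with the largest fold changes, at least 20 UMIs per sum and the same direction in 3 of 3 ovaries. Some genes are named outside this rule, and they are not a fair sample of the rest. They include *polr2i.L*, *polr2h.L*, *polr3d.L*, the copies of *polr2f*, *gtf3c4.L* and *gtf3c5.S* in some comparisons, and the factors *gtf3a.L*, *ubtf.L*, *tbpl2.L* and *brf1.L*. Members and lists were chosen with earlier results of these data known. No sequences are shown. The values of 1 member are not reported here on its own. Intervals of counting error are not given, because ovaries are the replicates.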

Additional observations from a re-analysis of the deposited data

How the results depend on the processing

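Members called in each comparison were counted again under each alternative. The share of all genes called under the same alternative is not given beside these counts, so a change in a count may not be particular to the members. Leaving out 1 ovary gave 6 to 11 calls in GSC-like against pre-meiotic S-like cells (10 in the fit given above), 10 to 17 in L-Z-like against pre-meiotic S-like cells (20), 22 to 32 in early diplotene-like against L-Z-like cells (32), 0 in both comparisons with larger oocytes (0), 2 to 19 in low-UMI cluster 6 (15), 0 to 18 in low-UMI clusters 5 and 11 (5), 4 to 24 in germ against somatic cells (27), 32 to 41 over germline groups (43) and 0 over somatic types (2). In stage 1 follicle-like against early diplotene-like cells the calls were 2 with DESeq2, 3 with no filter, 5 with the ovary block, 6 in the joint fit, 1 per total UMIs and 1 without the highest doublet scores. Over 8000 genes against stage 1 follicle-like gave 3 with the block. Low-UMI cluster 6 gave 3 with DESeq2, 23 at germline resolution 1 and 5 after thinning. Low-UMI clusters 5 and 11 gave 12 with DESeq2, 22 with no filter, 18 with the block, 2 with the members kept among the variable genes, 32 in the joint fit, 2 after thinning, 10 with homeologs summed, 10 without the highest doublet scores, 27 for cluster 11 alone and 0 for cluster 5 alone. Somatic types gave 7 with the block and 0 with homeologs summed. The cause of these changes was not tested. Over named members, 1423 of the calls under alternatives stayed on their side of the threshold, 48 were gained, 126 were lost and 1 reversed: *polr3a.L* in early diplotene-like against L-Z-like cells, at −0.10 per total UMIs. Repeating the clustering under another character sort order put 163 of 17147 cells into another group. Over the 8 comparisons of a pair of groups it kept each count of calls within 1 of its value except in cluster 6 (13 in place of 15), and *polr1a.L* and *polr1d.2.L* in cluster 6 and *polr3g.L* in clusters 5 and 11 lost their calls (adjusted p = 0.0945, 0.0572 and 0.0516). Total UMI scaling, the sort order, the doublet scores and the split of clusters 5 and 11 were added after seeing the data. Thinning tests depth in part, and ovary 1 had 28694 UMIs in cluster 6.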
